A study of Homo sapiens with 9 samples.

Results

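The 39 genes described here encode the trans-acting regulators of pre-mRNA splicing: 10 SR proteins, 2 TRA2 proteins, 15 heterogeneous nuclear ribonucleoproteins (hnRNPs), 3 polypyrimidine- and poly(C)-binding proteins, 4 RBM proteins, 3 kinases of SR proteins and 2 epithelial splicing regulators. They were taken by gene name from a table of 27421 genes and were not chosen on their measured values. The list was, however, made with earlier results of these data known. Of the 39 genes, 38 reached at least 1 FPKM (fragments scaled to transcript length and to the mapped fragments of the library) in at least 3 libraries and entered the tests, within 11245 tested genes in all; ESRP1 did not.

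RNA was sequenced from Huh7 cells, an established human hepatocellular carcinoma line, after poly(A) selection. There were 3 groups of 3 libraries each: the hairpin arm shZMAT2-1, the hairpin arm shZMAT2-2 and the Huh7 control. The 2 hairpins are named for ZMAT2, a zinc-finger protein of the spliceosome, so the comparison asks how the regulators stood when a component of the splicing machinery was lowered. Hairpin sequences, vectors, time after delivery and the construct carried by the control are not given in the sources used here. The labels do not say whether replicates were separate cultures, so p-values measure the spread between these libraries, which may be technical.

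SR proteins bind exonic enhancers through RNA recognition motifs and recruit the splicing machinery through domains rich in arginine and serine. hnRNPs coat nascent transcripts and often act against SR proteins at the same exons, while TRA2, PTB, poly(C)-binding, RBM and ESRP proteins select particular groups of exons. SRPK kinases phosphorylate SR proteins in the cytoplasm and CLK kinases do so in the nucleus. Many of these genes limit their own output through alternative exons that send the transcript to nonsense-mediated decay, which a value summed over a whole gene does not show.

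ZMAT2, the gene the hairpins are named for, had 15.2, 12.8 and 13.2 FPKM in shZMAT2-1, 22.1, 20.3 and 20.8 FPKM in shZMAT2-2 and 37.5, 32.8 and 39.2 FPKM in the control. All 6 hairpin libraries lay below the 3 control libraries, and the log2 difference was -1.35 (adjusted p = 0.0283) for shZMAT2-1 and -0.76 (adjusted p = 0.113) for shZMAT2-2. Library depth, recovered from genes with a single exon, was 18430000 to 23740000 fragments. The 10 Huh7 markers summed to 3433 to 6205 FPKM in every library, while markers of fibroblasts summed to at most 3.58 FPKM and those of endothelial cells to at most 1.70 FPKM. The 4 leukocyte markers summed to 43.7 to 131 FPKM, nearly all from LYZ, with the other 3 below 1 FPKM in every library.

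Libraries of the same group differed in the share of fragments, taken as FPKM times gene length, that came from the 13 protein-coding genes of the mitochondrial genome. This share was 8.25%, 16.4% and 7.70% in shZMAT2-1, 27.0%, 14.5% and 16.6% in shZMAT2-2, and 7.86%, 43.2% and 8.28% in the control. Control replicate 2 therefore stood apart from the other control libraries, and the shares of shZMAT2-2 were all above those of the remaining control libraries. Together the 39 genes summed to 2074, 1883 and 2135 FPKM in shZMAT2-1, 1622, 1841 and 1847 FPKM in shZMAT2-2 and 2143, 1270 and 2170 FPKM in the control, the lowest sum being in the library with the highest mitochondrial share. As a share of the FPKM of nuclear genes they made up between 0.938% and 1.09% in every library. In bulk RNA of this kind, fewer cells of a type and less RNA per cell cannot be told apart.

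Among the SR proteins, SRSF2, which binds exonic enhancers, was the most abundant by control mean, with 106, 86.5 and 106 FPKM in shZMAT2-1, 72.5, 77.4 and 88.99 FPKM in shZMAT2-2 and 88.05, 43.9 and 88.9 FPKM in the control. SRSF3, a small SR protein that also takes part in mRNA export, had 62.7, 38.4 and 60.6 FPKM in shZMAT2-1, 29.6, 37.8 and 38.4 FPKM in shZMAT2-2 and 52.4, 20.4 and 52.7 FPKM in the control. In both genes shZMAT2-1 replicates 1 and 3 were the highest of the 9 libraries and control replicate 2 was the lowest, and both arms overlapped the control. SRSF7, the zinc-knuckle SR protein, had 51.6, 32.6 and 51.7 FPKM in shZMAT2-1, 24.5, 31.4 and 32.9 FPKM in shZMAT2-2 and 45.1, 16.7 and 44.6 FPKM in the control. SRSF9 had 30.9, 17.1 and 32.7 FPKM in shZMAT2-1, 13.04, 18.7 and 19.1 FPKM in shZMAT2-2 and 31.6, 8.31 and 31.3 FPKM in the control. These genes shared an order within groups: in each group the library with the highest mitochondrial share had the lowest level, and the control spanned the widest range.

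SRSF6, an SR protein with a long arginine- and serine-rich domain, had 53.5, 46.1 and 55.8 FPKM in shZMAT2-1, 34.02, 41.3 and 39.5 FPKM in shZMAT2-2 and 51.6, 22.7 and 50.7 FPKM in the control. SRSF4, its close relative and the lowest SR protein by control mean, had 12.1, 13.7 and 12.9 FPKM in shZMAT2-1, 15.4, 13.8 and 14.9 FPKM in shZMAT2-2 and 11.997, 13.5 and 12.6 FPKM in the control. For SRSF4 control replicate 2 was not low, and all 3 shZMAT2-2 libraries lay above all 3 control libraries. SRSF11 had 15.3, 20.3 and 18.2 FPKM in shZMAT2-1, 23.8, 21.5 and 17.4 FPKM in shZMAT2-2 and 21.4, 27.2 and 22.2 FPKM in the control, so that all shZMAT2-1 libraries lay below all control libraries and control replicate 2 was the highest of the 9. The founding member SRSF1 averaged 23.3 ± 2.65 FPKM in shZMAT2-1, 19.8 ± 3.36 FPKM in shZMAT2-2 and 19.3 ± 8.40 FPKM in the control (SD, n = 3 in each group). SRSF5 averaged 33.6 ± 2.54 FPKM in shZMAT2-1, 27.7 ± 1.87 FPKM in shZMAT2-2 and 27.9 ± 10.4 FPKM in the control (SD, n = 3 in each group). SRSF10, which represses splicing when it loses its phosphates, averaged 16.5 ± 2.27 FPKM in shZMAT2-1, 17.6 ± 1.87 FPKM in shZMAT2-2 and 16.4 ± 2.62 FPKM in the control (SD, n = 3 in each group). In these 3 genes the differences between group means were smaller than the spread of the control libraries.

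TRA2A and TRA2B, SR-like proteins that bind purine-rich enhancers, were both expressed in every library, TRA2A above TRA2B. TRA2A had 26.9, 32.3 and 27.1 FPKM in shZMAT2-1, 32.2, 32.98 and 35.7 FPKM in shZMAT2-2 and 31.9, 33.4 and 34.8 FPKM in the control. TRA2B had 17.8, 22.003 and 19.4 FPKM in shZMAT2-1, 21.1, 22.6 and 21.3 FPKM in shZMAT2-2 and 21.1, 17.9 and 21.96 FPKM in the control. Their 9 libraries spanned less than those of most SR proteins, and the groups overlapped.

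HNRNPA1, which binds exonic silencers and competes with SR proteins, was the most abundant of the 39 genes by control mean, with 300.0, 235 and 303 FPKM in shZMAT2-1, 178, 226 and 238 FPKM in shZMAT2-2 and 298, 124 and 309 FPKM in the control. Its near relative HNRNPA2B1 had 108, 109 and 114 FPKM in shZMAT2-1, 115, 106 and 105 FPKM in shZMAT2-2 and 125, 115 and 129.5 FPKM in the control. HNRNPA2B1 was lower in each of the 6 hairpin libraries than in any control library, whereas HNRNPA1 overlapped between groups. HNRNPA3 had 52.03, 68.2 and 56.03 FPKM in shZMAT2-1, 70.5, 68.6 and 63.1 FPKM in shZMAT2-2 and 57.4, 56.4 and 59.9 FPKM in the control, with all shZMAT2-2 libraries above all control libraries. HNRNPA0, the lowest hnRNP by control mean, had 44.002, 24.4 and 44.04 FPKM in shZMAT2-1, 14.8, 22.4 and 23.9 FPKM in shZMAT2-2 and 39.2, 9.24 and 38.02 FPKM in the control. Libraries of the same group lay far apart, and control replicate 2 was the lowest of the 9.

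HNRNPDL, a relative of the AU-rich element binding protein HNRNPD, had 78.9, 77.2 and 81.1 FPKM in shZMAT2-1, 73.7, 66.1 and 71.7 FPKM in shZMAT2-2 and 65.95, 52.3 and 69.5 FPKM in the control, with all shZMAT2-1 libraries above all control libraries. HNRNPH3, a binder of runs of G, had 31.3, 43.4 and 34.4 FPKM in shZMAT2-1, 47.7, 39.8 and 38.1 FPKM in shZMAT2-2 and 34.6, 48.8 and 34.3 FPKM in the control, and was highest where the mitochondrial share was highest in every group. HNRNPK, a KH-domain binder of poly(C), averaged 139 ± 12.5 FPKM in shZMAT2-1, 110.2 ± 20.1 FPKM in shZMAT2-2 and 135 ± 63.02 FPKM in the control. HNRNPC, which binds runs of U, averaged 97.6 ± 6.33 FPKM in shZMAT2-1, 82.7 ± 9.56 FPKM in shZMAT2-2 and 92.9 ± 33.4 FPKM in the control. HNRNPM averaged 90.6 ± 20.2 FPKM in shZMAT2-1, 67.4 ± 10.2 FPKM in shZMAT2-2 and 82.3 ± 32.6 FPKM in the control. All 3 had a control SD larger than the difference between any pair of group means. HNRNPH1 averaged 87.99 ± 16.8 FPKM in shZMAT2-1, 98.1 ± 4.73 FPKM in shZMAT2-2 and 96.4 ± 0.292 FPKM in the control. HNRNPD averaged 67.98 ± 0.400 FPKM in shZMAT2-1, 67.2 ± 3.68 FPKM in shZMAT2-2 and 63.3 ± 14.2 FPKM in the control. HNRNPF averaged 59.9 ± 3.93 FPKM in shZMAT2-1, 54.3 ± 6.94 FPKM in shZMAT2-2 and 57.2 ± 21.5 FPKM in the control. As deposited, HNRNPH1 differed from HNRNPF in that its control libraries lay close together. With levels divided by the summed FPKM of nuclear genes this turned round. The control was then 108 ± 39.1 FPKM for HNRNPH1 and 58.3 ± 6.49 FPKM for HNRNPF. HNRNPL, a binder of CA repeats, averaged 47.5 ± 1.95 FPKM in shZMAT2-1, 43.1 ± 6.27 FPKM in shZMAT2-2 and 42.2 ± 10.8 FPKM in the control. HNRNPU averaged 39.8 ± 0.973 FPKM in shZMAT2-1, 36.95 ± 2.90 FPKM in shZMAT2-2 and 37.4 ± 8.87 FPKM in the control. HNRNPR averaged 34.03 ± 3.52 FPKM in shZMAT2-1, 35.3 ± 4.59 FPKM in shZMAT2-2 and 36.1 ± 2.39 FPKM in the control. HNRNPL, HNRNPU and HNRNPR did not separate either arm from the control; these means are over 3 libraries, with their SD.

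PTBP1, which represses exons beside pyrimidine-rich tracts, had 89.9, 83.3 and 90.1 FPKM in shZMAT2-1, 69.6, 86.9 and 86.7 FPKM in shZMAT2-2 and 95.9, 54.004 and 94.4 FPKM in the control. PCBP2, a poly(C)-binding protein, had 38.8, 23.7 and 35.3 FPKM in shZMAT2-1, 17.5, 24.4 and 27.3 FPKM in shZMAT2-2 and 29.98, 10.9 and 30.4 FPKM in the control. PCBP1, its intronless relative, had 15.99, 11.9 and 15.6 FPKM in shZMAT2-1, 8.50, 11.9 and 11.7 FPKM in shZMAT2-2 and 16.98, 6.76 and 17.3 FPKM in the control. All 3 were lowest in control replicate 2, and in each group lowest in the library with the highest mitochondrial share.

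RBM3, an RNA-binding protein induced by mild cold, had 82.5, 60.8 and 85.7 FPKM in shZMAT2-1, 51.8, 56.5 and 63.9 FPKM in shZMAT2-2 and 61.8, 24.6 and 65.7 FPKM in the control. RBMX, the X-linked hnRNP G, had 58.8, 62.2 and 59.5 FPKM in shZMAT2-1, 53.4, 61.4 and 59.2 FPKM in shZMAT2-2 and 65.4, 40.1 and 64.6 FPKM in the control. RBM5, a splicing regulator of apoptosis genes, had 5.66, 5.61 and 5.96 FPKM in shZMAT2-1, 5.40, 6.45 and 5.69 FPKM in shZMAT2-2 and 6.60, 4.20 and 6.36 FPKM in the control. RBM3 stood highest in shZMAT2-1 replicates 1 and 3, while RBMX and RBM5 were highest in control replicate 1 and lowest in control replicate 2. RBM39, which helps to define the 3' splice site, averaged 22.9 ± 1.48 FPKM in shZMAT2-1, 20.3 ± 1.45 FPKM in shZMAT2-2 and 22.8 ± 5.94 FPKM in the control (SD, n = 3 in each group).

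The kinases were expressed at lower levels than most of their substrates. CLK2 had 12.6, 15.5 and 14.1 FPKM in shZMAT2-1, 12.8, 15.2 and 17.6 FPKM in shZMAT2-2 and 15.3, 11.2 and 16.6 FPKM in the control. CLK1 had 6.15, 6.65 and 7.37 FPKM in shZMAT2-1, 7.38, 8.13 and 7.45 FPKM in shZMAT2-2 and 8.55, 4.82 and 8.18 FPKM in the control. SRPK1 averaged 8.199 ± 1.75 FPKM in shZMAT2-1, 9.60 ± 1.57 FPKM in shZMAT2-2 and 9.63 ± 1.56 FPKM in the control (SD, n = 3 in each group). Both arms overlapped the control in all 3 kinases. ESRP2, an epithelial splicing factor active in liver, had 6.77, 6.59 and 6.40 FPKM in shZMAT2-1, 7.42, 7.13 and 7.22 FPKM in shZMAT2-2 and 6.01, 6.21 and 6.15 FPKM in the control. All 6 hairpin libraries lay above all control libraries, with shZMAT2-2 above shZMAT2-1. ESRP1 was between 0.0111 and 0.212 FPKM in the 9 libraries, below the filter, so no difference in it was tested. For scale, 3 fragments on a transcript of 1 kb give 0.126 to 0.163 FPKM, counting error only. The transcript length of ESRP1 was not used here. HNRNPA1, HNRNPA3, HNRNPC, RBMX and PCBP1 have closely similar gene copies or pseudogenes in the human genome, between which counting could split fragments, and their values are uncertain to that extent.

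**Figure D1:**
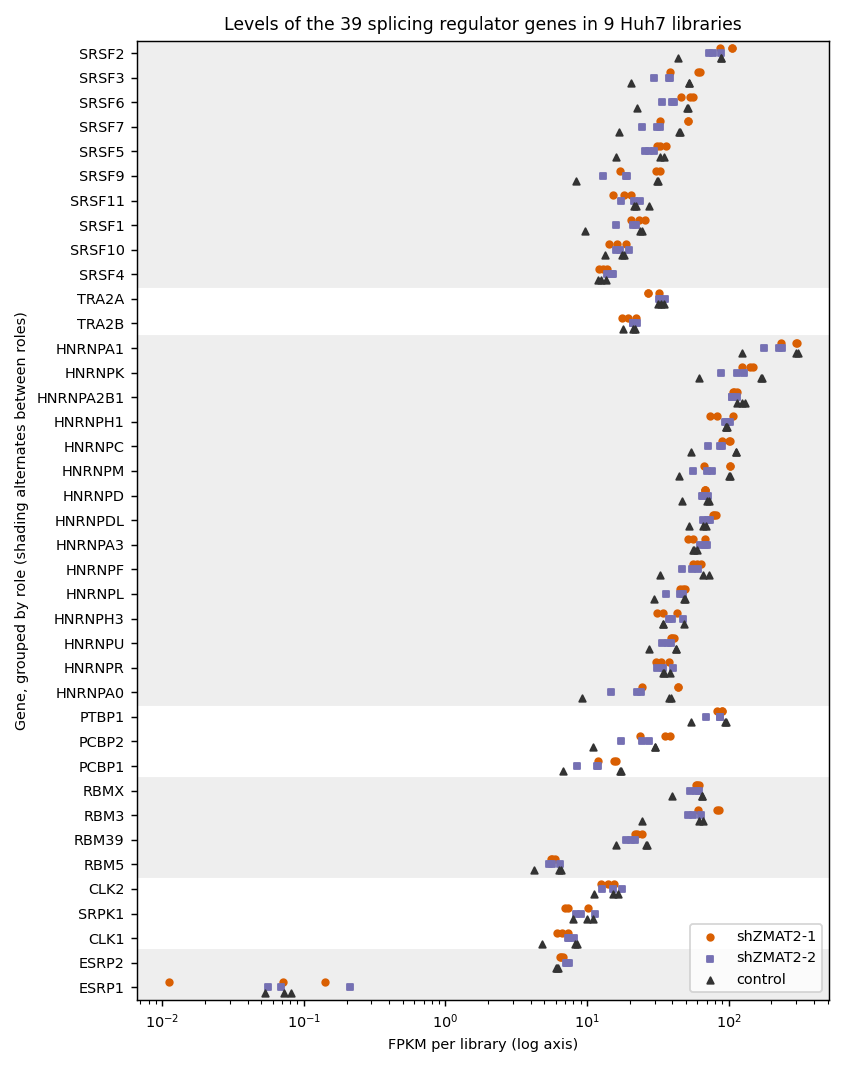
FPKM of the 39 genes on a log axis, 1 point per library, genes grouped by role and points coloured by group. HNRNPA1 was the highest at 124 to 309 FPKM and ESRP1 the lowest at 0.0111 to 0.212 FPKM.

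Promoter sequence from RefSeq (GRCh38.p14) was matched by symbol to 33 of the 39 genes; each window of 300 bases spans an annotated start. The windows of 6 genes, chosen after values were seen, are shown because HNRNPA0 and SRSF9 had the steepest slopes on mitochondrial content within groups, because HNRNPH3, HNRNPK and SRSF10 hold the motif TCTCGCG on both strands of one stretch, and because RBM3 has the largest difference between an arm and the control. Capitals mark matches, on either strand, to the 10 motifs searched, none of which lies inside another; where 2 matches overlap the capitals run on.
HNRNPA0, chr5:137754314-137754613, minus strand: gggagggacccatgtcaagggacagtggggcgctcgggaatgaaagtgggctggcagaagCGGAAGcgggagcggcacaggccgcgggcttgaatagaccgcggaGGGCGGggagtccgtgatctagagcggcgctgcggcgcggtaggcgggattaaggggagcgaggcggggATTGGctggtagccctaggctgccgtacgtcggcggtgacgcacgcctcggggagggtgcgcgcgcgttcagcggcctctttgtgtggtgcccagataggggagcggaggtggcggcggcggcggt
SRSF9, chr12:120469699-120469998, minus strand: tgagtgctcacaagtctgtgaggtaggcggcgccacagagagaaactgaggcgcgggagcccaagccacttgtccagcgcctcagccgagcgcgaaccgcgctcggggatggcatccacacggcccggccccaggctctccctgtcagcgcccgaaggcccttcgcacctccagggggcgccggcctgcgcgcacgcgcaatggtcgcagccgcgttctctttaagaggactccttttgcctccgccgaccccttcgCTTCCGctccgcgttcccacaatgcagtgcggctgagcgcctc
HNRNPH3, chr10:68331814-68332113, plus strand: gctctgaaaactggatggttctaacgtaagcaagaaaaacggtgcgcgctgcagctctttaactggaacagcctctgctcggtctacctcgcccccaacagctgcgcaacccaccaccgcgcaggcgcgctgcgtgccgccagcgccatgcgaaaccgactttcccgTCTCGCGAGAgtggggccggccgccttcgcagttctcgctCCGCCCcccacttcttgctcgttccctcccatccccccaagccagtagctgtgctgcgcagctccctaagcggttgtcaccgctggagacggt
HNRNPK, chr9:83980566-83980865, minus strand: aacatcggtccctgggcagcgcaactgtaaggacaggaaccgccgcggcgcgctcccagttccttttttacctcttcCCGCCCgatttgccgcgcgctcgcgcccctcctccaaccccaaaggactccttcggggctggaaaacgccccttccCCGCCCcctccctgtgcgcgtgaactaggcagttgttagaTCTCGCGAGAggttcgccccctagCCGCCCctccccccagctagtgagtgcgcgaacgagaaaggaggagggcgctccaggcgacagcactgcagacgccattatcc
SRSF10, chr1:23980278-23980577, minus strand: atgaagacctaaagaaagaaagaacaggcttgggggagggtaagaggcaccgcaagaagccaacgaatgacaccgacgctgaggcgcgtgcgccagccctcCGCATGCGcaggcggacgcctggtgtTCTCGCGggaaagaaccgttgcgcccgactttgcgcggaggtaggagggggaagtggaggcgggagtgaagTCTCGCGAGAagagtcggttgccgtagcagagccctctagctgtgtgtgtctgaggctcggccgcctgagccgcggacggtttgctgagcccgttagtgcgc
RBM3, chrX:48574234-48574533, plus strand: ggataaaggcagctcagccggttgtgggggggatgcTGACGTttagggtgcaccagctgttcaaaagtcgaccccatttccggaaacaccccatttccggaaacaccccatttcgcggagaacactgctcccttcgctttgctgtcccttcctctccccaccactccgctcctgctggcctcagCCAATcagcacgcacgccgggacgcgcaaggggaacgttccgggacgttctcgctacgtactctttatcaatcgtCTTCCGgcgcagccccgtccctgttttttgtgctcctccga
HNRNPH3 is listed with 3 windows and HNRNPK with 2; the first one holding TCTCGCG is shown.

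TCTCGCG, whose end overlaps its own reverse complement, was in a window of 5 of the 33 genes (15.2%, against 8.28% of tested genes with a window), the other two being HNRNPD and HNRNPDL. The GC box GGGCGG was in 22 (66.7%, against 77.4% of tested genes) and the CCAAT box, CCAAT, in 17 (51.5%, against 43.8%). The ETS core CGGAAG was in 16 (48.5%, against 40.2%), and the cyclic AMP response element core TGACGT in 8 (24.2%, against 14.6%). TATAAA was in 6 (18.2%, against 8.23%), the E-box CACGTG in 6 (18.2%, against 12.9%), CTTTCCG in 3 (9.09%, against 7.26%) and GATGGCG in 2 (6.06%, against 9.86%). GCATGCG was in 3 (9.09%, against 8.13%). These are counts of letters in a window, with no measurement of binding.

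Against the control, no regulator passed the test in either arm. In the limma test with Benjamini-Hochberg adjustment over all tested genes, 0 of 38 regulators passed in shZMAT2-1, where 0.08% of all genes did, and 0 of 38 passed in shZMAT2-2, where 0.587% did. For the mean of both arms the count was again 0 of 38, against 0.542% of all genes. No regulator had an unadjusted p under 0.05 in these comparisons, against 5.76%, 7.0% and 6.93% of all genes. Without control replicate 2, 0 of 38 still passed the adjusted threshold, but an unadjusted p under 0.05 was found for 1 regulator in shZMAT2-1, 12 in shZMAT2-2 and 5 for the mean of both arms, beside 8.94%, 29.5% and 16% of all genes. The comparisons share their control libraries, so their values are given side by side and not as repeats of each other.

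In shZMAT2-1 the 6 regulators with the smallest p were RBM3, SRSF11, HNRNPDL, SRSF2, PCBP2 and SRSF6. The log2(FPKM + 1) difference from the control was 0.69 (SE 0.35) for RBM3, 0.54 (SE 0.38) for PCBP2, 0.49 (SE 0.29) for SRSF2, 0.39 (SE 0.30) for SRSF6 and 0.34 (SE 0.19) for HNRNPDL, and -0.38 (SE 0.20) for SRSF11; the adjusted p was 0.805 for each. Of the 38 regulators 28 had a higher and 10 a lower mean than in the control, with a median log2 difference of 0.14 beside 0.16 over all tested genes. This tally rested on control replicate 2: without it 9 regulators were higher and 29 lower, with a median of -0.11 beside -0.053 over all genes. Without that library the difference was 0.24 for RBM3, 0.16 for SRSF2, 0.077 for PCBP2, 0.014 for SRSF6, 0.22 for HNRNPDL and -0.28 for SRSF11.

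In shZMAT2-2 the 6 smallest p belonged to ESRP2, SRSF4, HNRNPA3, HNRNPA2B1, HNRNPDL and SRSF11. ESRP2 had a log2 difference of 0.21 (SE 0.14, adjusted p = 0.988), with all 3 libraries above the control. The differences were 0.22 (SE 0.19) for HNRNPA3, 0.20 (SE 0.16) for SRSF4, 0.18 (SE 0.19) for HNRNPDL, -0.18 (SE 0.19) for HNRNPA2B1 and -0.17 (SE 0.20) for SRSF11, each with an adjusted p of 1.00. Higher means than in the control were found in 22 regulators and lower means in 16, with a median of 0.028 beside 0.049 over all tested genes. Without control replicate 2 these were 9 and 29, with a median of -0.17 beside -0.15 over all genes, and HNRNPDL was at 0.056 and SRSF11 at -0.069. The counts were 18 and 20 without shZMAT2-2 replicate 2 or without replicate 3 of that arm, with medians of -0.016 and -0.012.

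Over the mean of both arms, RBM3 had a log2 difference of 0.49 (SE 0.30, adjusted p = 0.961), SRSF2 one of 0.34 (SE 0.25, adjusted p = 0.999) and HNRNPDL one of 0.26 (SE 0.17, adjusted p = 0.991). SRSF11 had -0.28 (SE 0.17, adjusted p = 0.976), HNRNPA2B1 -0.17 (SE 0.16, adjusted p = 0.999) and ESRP2 0.15 (SE 0.12, adjusted p = 0.999). The median of the 38 was 0.066, beside 0.095 over all tested genes. Without control replicate 2 the median was -0.16, beside -0.11 over all genes, and 7 regulators were higher and 31 lower. RBM3 was then at 0.044, SRSF2 at 0.0039, HNRNPDL at 0.14 and SRSF11 at -0.17. ESRP2 was the only regulator whose 6 hairpin libraries all lay above the 3 control libraries, and HNRNPA2B1 the only one whose 6 all lay below; these 2 of 38 are 5.26%, beside 5.37% of all tested genes. In each single arm 4 of 38 regulators (10.5%) separated from the control as deposited, beside 10.9% of all genes for shZMAT2-1 and 13.4% for shZMAT2-2.

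**Figure D2:**
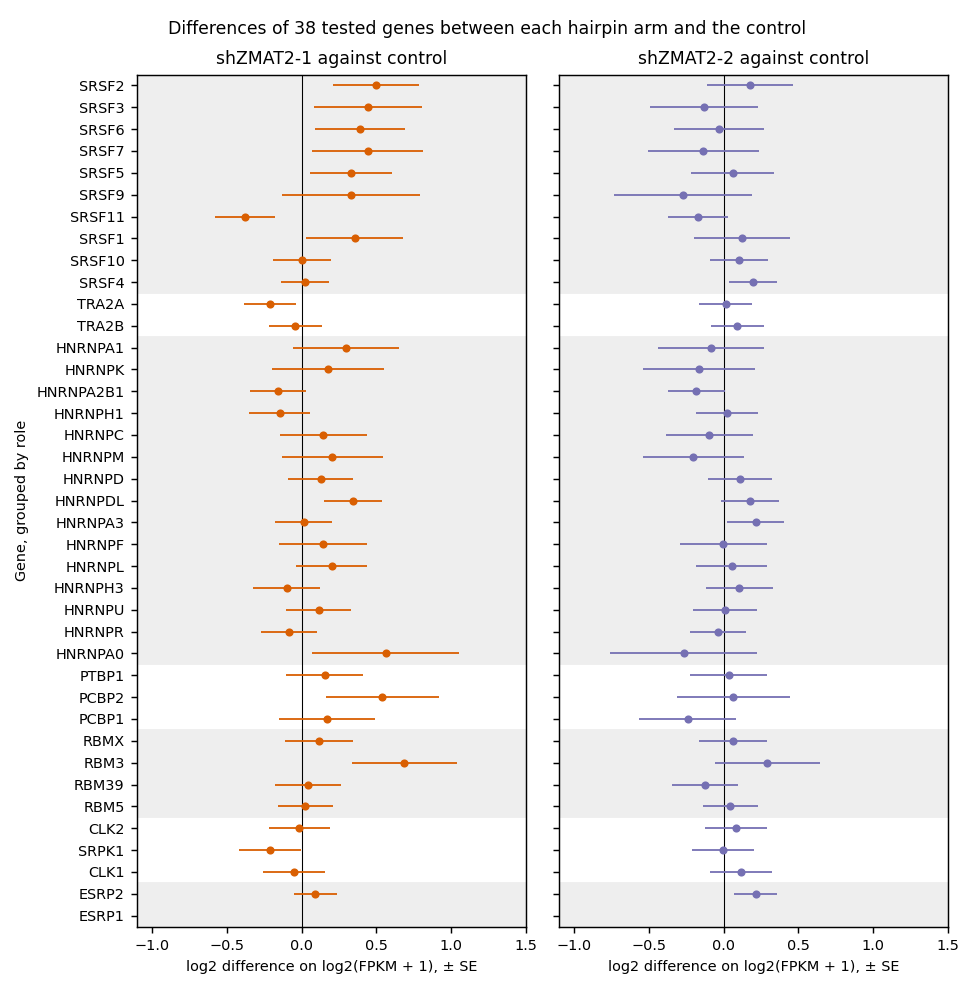
Log2(FPKM + 1) differences from the control of the 38 tested regulators in shZMAT2-1 and in shZMAT2-2, with bars of 1 SE, grouped by role. RBM3 reached 0.69 in shZMAT2-1, and no regulator passed the adjusted threshold in either panel.

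Between the arms, again 0 of 38 regulators passed the limma test, as did 0.0% of all genes; 0 of 38 had an unadjusted p under 0.05, beside 4.14% of all genes. Without control replicate 2, which enters here only through the estimate of the spread, 0 passed the adjusted threshold and 8 had an unadjusted p under 0.05, beside 23.7%. HNRNPA0 differed by -0.83 (SE 0.49, adjusted p = 0.657) on the log2 scale in shZMAT2-2 relative to shZMAT2-1. The differences were -0.60 (SE 0.46) for SRSF9, -0.58 (SE 0.37) for SRSF7, -0.58 (SE 0.36) for SRSF3, -0.43 (SE 0.30) for SRSF6 and 0.22 (SE 0.17) for TRA2A, with adjusted p between 0.657 and 0.659. The arms did not overlap in 11 of 38 regulators (28.9%, beside 14.9% of all tested genes). CLK1, ESRP2 and SRSF4 were higher in shZMAT2-2, while HNRNPC, SRSF5, SRSF3, SRSF6, RBM39, HNRNPDL, PCBP1 and HNRNPA0 were lower. With levels divided by the summed FPKM of nuclear genes, the arms did not overlap in 10 of 38 (26.3%, beside 17.2% of all tested genes). HNRNPC, SRSF5, SRSF4, RBM39 and HNRNPDL were then no longer among them, while RBM3, SRSF7, HNRNPA1 and TRA2A were. The mitochondrial share was 14.5% to 27.0% in shZMAT2-2 and 7.70% to 16.4% in shZMAT2-1, and its part in this separation was not tested.

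Without control replicate 2 and shZMAT2-1 replicate 2, the libraries of highest mitochondrial share in these groups, calls appeared for shZMAT2-2. Of the 38 regulators 10 were then lower in shZMAT2-2 than in the control, beside 23.5% of all tested genes, and 11 were lower in shZMAT2-2 than in shZMAT2-1, beside 29.1%; 0 were higher, beside 6.75% and 13.2%. HNRNPA0 had a log2 difference of -0.92 (adjusted p = 0.00522) from the control and -1.103 (adjusted p = 0.00149) from shZMAT2-1. In the libraries kept, the mitochondrial share was 14.5% to 27.0% in shZMAT2-2, 7.70% to 8.25% in shZMAT2-1 and 7.86% to 8.28% in the control, so arm and share cannot be told apart in this subset.

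Within groups, most regulators moved with the mitochondrial content of the library. In a limma fit with group and the log2 summed FPKM of the 13 mitochondrial genes, 25 of 38 regulators passed the adjusted threshold, 24 lower and 1 higher as the sum doubled. This share is near that of the transcriptome: 65.1% of all tested genes passed, 60.4% lower and 4.68% higher, and the median slope was -0.23 for the regulators and -0.22 for all genes. FPKM is relative to the library total, which includes the mitochondrial fragments.

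The steepest slope among the regulators was that of HNRNPA0, at -0.77 (adjusted p = 9.96e-06) on the log2 scale per doubling, followed by SRSF9 at -0.72 (adjusted p = 1.11e-05). PCBP2 had a slope of -0.56 (adjusted p = 1.93e-05), SRSF7 of -0.55 (adjusted p = 1.36e-05), SRSF3 of -0.53 (adjusted p = 1.56e-05) and HNRNPA1 of -0.48 (adjusted p = 2.01e-05). Of 8 regulators with a positive slope as deposited, HNRNPH3 was the only one that passed, at 0.23 (adjusted p = 0.00248). With TPM in place of FPKM 37 regulators passed lower and 0 higher, beside 10143 lower and 57 higher of 11245 tested genes. Scaled on nuclear genes 13 passed higher, beside 25.5% of all tested genes. By role and as deposited, 7 of 10 SR proteins passed with a negative slope on the mitochondrial sum, as did 9 of 15 hnRNPs. So did all 3 PTB and poly(C)-binding proteins, all 4 RBM proteins and CLK1 among the kinases. Neither TRA2 protein passed, nor did ESRP2. Of the 3 genes shown with TCTCGCG in their promoters, HNRNPK fell at -0.53 (adjusted p = 2.92e-05), HNRNPH3 rose as given above, and SRSF10 had -0.10 (adjusted p = 0.246). Without control replicate 2, the library with the widest deviation, 12 of 38 regulators passed, beside 29.8% of all genes. These 12 had all passed with all libraries and kept their sign, and HNRNPH3 was among them. Without both control replicate 2 and shZMAT2-1 replicate 2, 0 of 38 regulators and 0.0% of all genes passed. The slopes were then -0.66 for HNRNPA0 and -0.57 for SRSF9, with their sign kept.

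**Figure D3:**
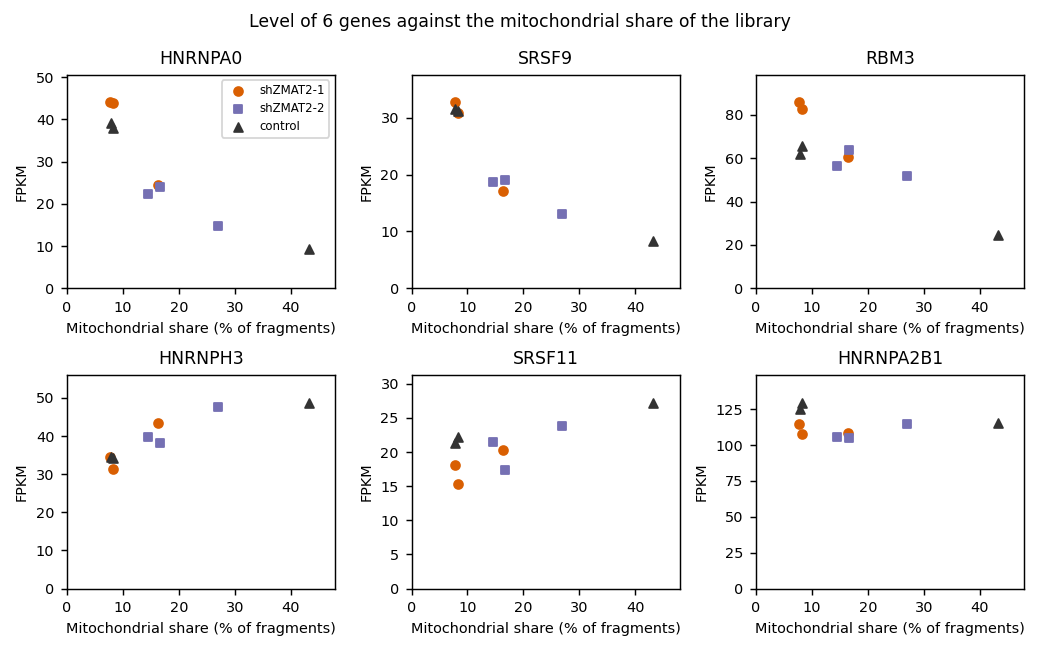
FPKM of 6 regulators (vertical axes) against the mitochondrial share in percent of fragments (horizontal axes), 1 point per library, with colour and shape for the group. HNRNPA0 was lowest, at 9.24 FPKM, in control replicate 2, where the share was 43.2%, and HNRNPH3 was highest there, at 48.8 FPKM.

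The same order was visible in single libraries. The library with the highest mitochondrial share of its group (shZMAT2-1 replicate 2, shZMAT2-2 replicate 1 and control replicate 2) lay below the other libraries of its group in all 3 groups for 19 of 38 regulators (50.0%, beside 45.2% of all tested genes). It lay above them in all 3 groups for HNRNPH3, HNRNPR, SRSF11 and SRSF4 (10.5%, beside 5.7%). As a ratio to the mean of the other libraries, HNRNPA0 was 0.554 in shZMAT2-1, 0.642 in shZMAT2-2 and 0.239 in the control. SRSF9 was 0.538 in shZMAT2-1, 0.689 in shZMAT2-2 and 0.264 in the control. HNRNPH3 was 1.32 in shZMAT2-1, 1.23 in shZMAT2-2 and 1.41 in the control, and SRSF11 1.22 in shZMAT2-1, 1.22 in shZMAT2-2 and 1.25 in the control. Genes of the same role thus differed. HNRNPA0 and HNRNPA1 were lower and HNRNPA3 was not, and SRSF3, SRSF7 and SRSF9 were lower while SRSF4 and SRSF11 were higher.

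**Figure D4:**
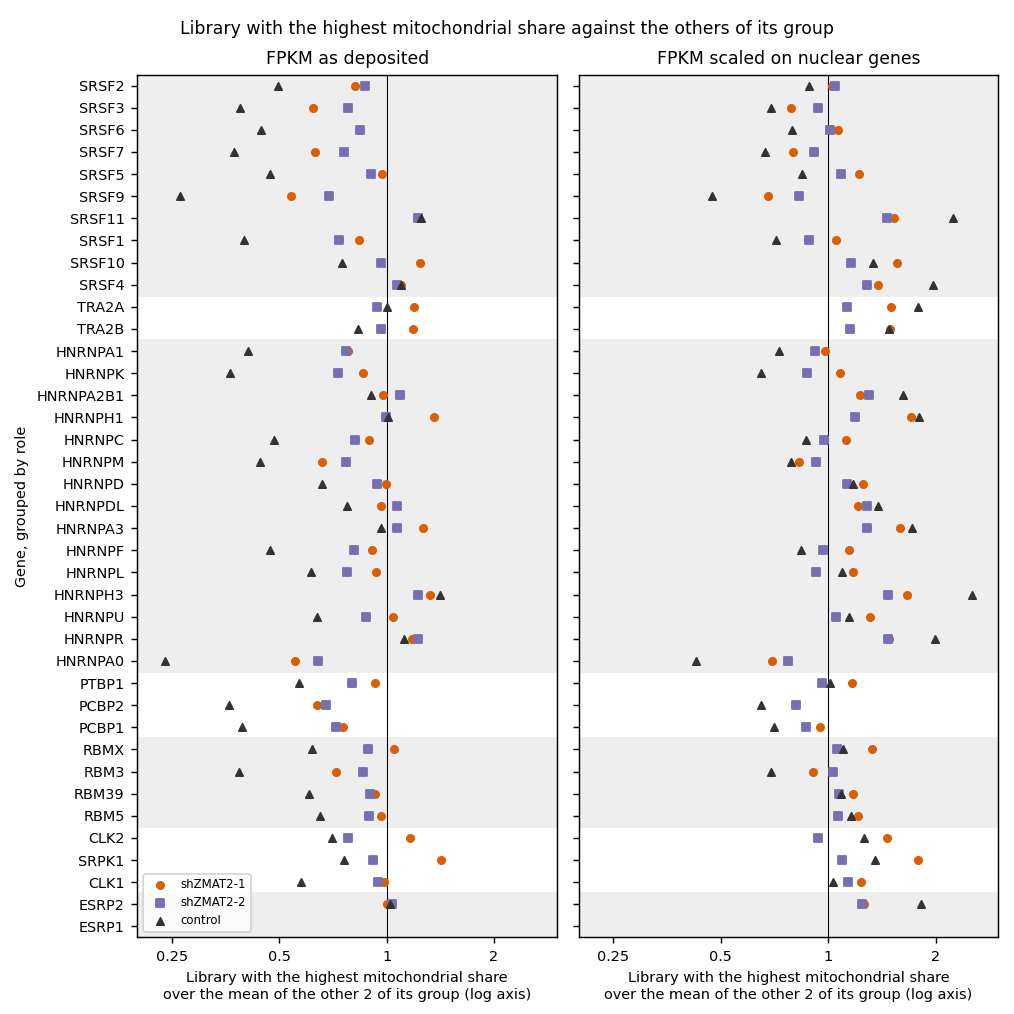
Ratio, on a log axis, of the library with the highest mitochondrial share to the mean of the other libraries of its group, for the 38 tested regulators, with FPKM as deposited on the left and scaled on nuclear genes on the right. As deposited, HNRNPA0 was at 0.554 in shZMAT2-1, 0.642 in shZMAT2-2 and 0.239 in the control, and HNRNPH3 was above 1 in all 3 groups; ESRP1 was not tested and has no point.

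Expressed as a share of nuclear FPKM, the regulators no longer moved one way. Scaled on nuclear genes, 13 of 38 regulators had a slope above 0 and 11 a slope below 0 past the adjusted threshold, beside 25.5% and 23.1% of all tested genes. The high-mitochondrial library lay below the others in all 3 groups for 8 regulators (21.1%, beside 21.8%), among them HNRNPA0, HNRNPA1, SRSF3, SRSF7, SRSF9, PCBP1 and PCBP2. It lay above them for 17 (44.7%, beside 27.7%), among them both TRA2 proteins, CLK1, ESRP2, HNRNPA2B1, HNRNPA3, HNRNPH1, HNRNPH3, SRSF4 and SRSF11. The scaled slope was -0.46 (adjusted p = 5.64e-05) for HNRNPA0, -0.42 (adjusted p = 0.000123) for SRSF9 and 0.55 (adjusted p = 0.000153) for HNRNPH3. Over the 38 genes the scaled slope had a Spearman correlation of -0.14 with GC content and 0.22 with transcript length, where the tested genes with such values gave -0.41 and 0.35 over 11018 genes; the points share their 9 libraries. HNRNPA0 and PCBP1 are single-exon genes.

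The direction of the differences also depended on this scaling in shZMAT2-1 and in the mean of both arms, but not in shZMAT2-2. In shZMAT2-2, 22 regulators were higher and 16 lower as deposited and 24 higher and 14 lower when scaled. Of all tested genes 6570 were higher and 4675 lower as deposited, and 6864 higher and 4381 lower when scaled. Median-of-ratios scaling did turn the shZMAT2-2 tally, to 14 regulators higher and 24 lower, beside 5590 and 5655 of all tested genes. In shZMAT2-1, 28 regulators were higher and 10 lower than in the control as deposited. Scaled on nuclear genes, 12 were higher and 26 lower. All tested genes went from 8196 higher and 3049 lower to 5076 higher and 6169 lower, and their median shifted to -0.032. For the mean of both arms the counts were 30 higher and 8 lower as deposited, and 13 higher and 25 lower when scaled. Over all tested genes they were 8073 and 3172 as deposited, and 5814 and 5431 when scaled. HNRNPA2B1 and ESRP2, whose 6 hairpin libraries had lain apart from the control as deposited, no longer did so after scaling. RBM3 and SRSF2 then did: RBM3 had 68.6, 64.2 and 72.7 FPKM in shZMAT2-1, 63.2, 58.9 and 63.5 FPKM in shZMAT2-2 and 55.03, 38.99 and 57.95 FPKM in the control of scaled level, and SRSF2 had 88.4, 91.5 and 89.9 FPKM in shZMAT2-1, 88.5, 80.7 and 88.5 FPKM in shZMAT2-2 and 78.4, 69.5 and 78.5 FPKM in the control. All 6 hairpin libraries were above all 3 control libraries for both genes, and below for RBM39; 3 of 38 regulators (7.89%) separated in this way, beside 6.98% of all tested genes. Their limma tests on scaled values did not pass, at 0.37 (adjusted p = 0.342) for RBM3 and 0.22 (adjusted p = 0.497) for SRSF2. In the single arms the separations of SRSF4, SRSF11, HNRNPA3 and HNRNPDL from the control were also lost after scaling. RBM3, SRSF2 and RBM39 then separated in each arm, and CLK1 in shZMAT2-1 only. These were 10.5% of regulators for shZMAT2-1, beside 13.4% of all tested genes, and 7.89% for shZMAT2-2, beside 17.7%.

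**Figure D5:**
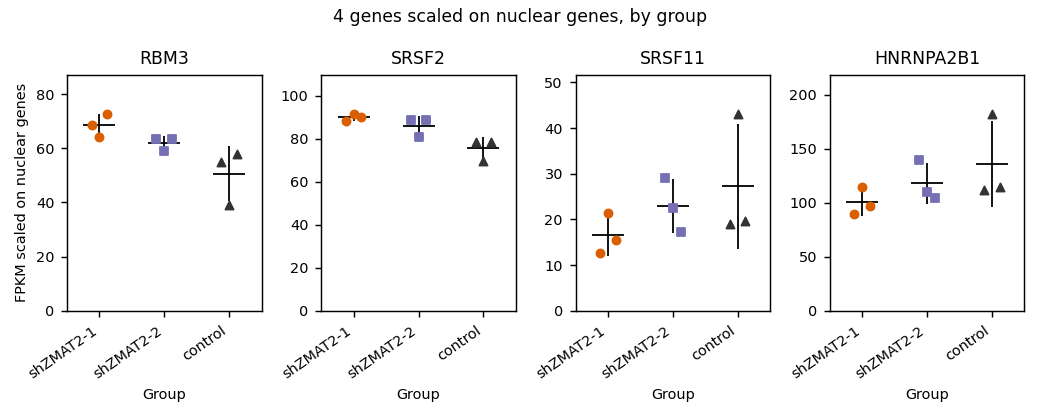
Levels of RBM3, SRSF2, SRSF11 and HNRNPA2B1 in FPKM scaled on nuclear genes, 1 point per library with the group mean and SD. RBM3 averaged 68.5 FPKM in shZMAT2-1, 61.9 FPKM in shZMAT2-2 and 50.7 FPKM in the control, and the groups overlapped for SRSF11 and HNRNPA2B1.

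With the mitochondrial sum as a covariate, RBM3 and SRSF2 passed the limma test for the mean of both arms, at 0.46 (adjusted p = 0.0138) and 0.31 (adjusted p = 0.0458); these 2 of 38 regulators stand beside 9.75% of all tested genes. RBM3 also passed in shZMAT2-2 at 0.47 (adjusted p = 0.0246), beside 9.84% of genes, and was at 0.45 (adjusted p = 0.0563) in shZMAT2-1, where 0 regulators and 3.73% of genes passed. The mean difference of RBM3 was 0.31 to 0.52 when each library was left out in turn, and missed the threshold without control replicate 1 (adjusted p = 0.11), replicate 2 (0.333) or replicate 3 (0.0522). SRSF2 ranged over 0.19 to 0.36 and passed only without shZMAT2-1 replicate 2 (0.0404) or shZMAT2-2 replicate 2 (0.0187). This adjustment was chosen with earlier results of these data known.

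Beside the 39, 60 other splicing regulators were listed, of which 53 were tested. In the limma test of all 9 libraries without covariates, 0 of them passed in any of the 4 comparisons. An unadjusted p under 0.05 was found for 0 in shZMAT2-1, 2 in shZMAT2-2, 1 in the mean of both arms and 1 between the arms. Over all tested genes the shares were 5.76%, 7.0%, 6.93% and 4.14% in the same order. The median log2 difference of the other regulators was 0.11 in shZMAT2-1, 0.086 in shZMAT2-2 and 0.11 for the mean of both arms, beside 0.16, 0.049 and 0.095 over all genes. Without control replicate 2 it was -0.030, -0.046 and -0.039, with 0 passing, beside -0.053, -0.15 and -0.11. With the mitochondrial covariate 2 passed in shZMAT2-2 and 1 for the mean of both arms, beside 9.84% and 9.75% of all genes. Without both control replicate 2 and shZMAT2-1 replicate 2, 5 passed higher and 7 lower for shZMAT2-2 against the control, beside 6.75% and 23.5%. Between the arms 12 then passed higher and 6 lower, beside 13.2% and 29.1%. MBNL2, a muscleblind splicing factor, had a log2 difference of 0.90 in shZMAT2-2 (adjusted p = 0.316) and MBNL3 one of 0.70 (adjusted p = 0.595); these had the smallest p of the list in that arm and, like CIRBP, were picked out once the values were known. CIRBP, the cold-inducible relative of RBM3, had the smallest p for the mitochondrial slope, at -0.69 (adjusted p = 1.84e-05).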

How the data were processed

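Poly(A) libraries of Huh7 cells, 3 per group and 9 in all, were made with a dUTP step for strand-specific libraries, per the labels' protocols. The values used are FPKM deposited by the authors in 1 gene table. HISAT, featureCounts and DESeq2 are named in the submitters' processing notes, without versions; the genome build and the strand setting of the counting are not given in the sources used here. Gene positions of all 39 members overlap those of GENCODE release 29. Depth was recovered from FPKM steps of 1631 single-exon genes, of which 99.9% to 100.0% of low values lay within 0.1 fragments of a whole number.

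The test took genes that reached 1 FPKM in 3 or more libraries, on log2(FPKM + 1), using limma 3.58.1 (trend, R 4.3.3), in 1 fit over 9 libraries and 3 groups without covariates; fold changes on this scale understate those of low genes. P-values were adjusted by Benjamini-Hochberg over all 11245 tested genes, with a threshold of 0.05. A second fit added the centred log2 summed FPKM of the 13 mitochondrial protein-coding genes, whose share of fragments is the sum of FPKM times gene length. Differences are arm minus control, or shZMAT2-2 minus shZMAT2-1. Scaled levels were divided by the summed FPKM of nuclear genes and brought back to the mean over libraries. Nuclear genes here means every gene except the 13 mitochondrial protein-coding genes, so any other mitochondrial genes were not taken out. No replicates were identical or within sampling noise (the smallest chi-square per degree of freedom was 1.99). The fit was tested on simulated data in which genes varied independently of each other. That test does not cover the shared movement of genes with the mitochondrial sum.

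Values per library are given for the 6 genes with the smallest p in each comparison and for the highest and lowest gene of each role. The 39 members, the other lists, the tests and the mitochondrial covariate were chosen with earlier results of these data known. Samples were grouped by their titles. Alternatives covered the pseudocount, filter, scaling, replicate block, groups fitted, libraries left out, covariate and trend.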

Additional observations from a re-analysis of the deposited data

How the results depend on the processing

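The count of 0 regulators passing in the comparisons between groups held under every alternative except dropping a pair of libraries, control replicate 2 with shZMAT2-1 replicate 2, which gave 10 regulators for shZMAT2-2 against the control and 11 for shZMAT2-2 against shZMAT2-1, and the mitochondrial covariate, which gave 1 for shZMAT2-2 and 2 for the mean of both arms. For the slope, 12 to 30 regulators passed when each library was left out in turn, the lowest without control replicate 2, and 0 without both libraries named above.

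Counts of all genes moved more. For shZMAT2-1 the count was 9 and became 4 with a filter of 5 FPKM, 0 with TPM, 77 with median-of-ratios scaling, 71 with quantile normalization, 55 with scaling on nuclear genes, 0 with only the groups compared, 5 without trend, 140 without both libraries, 419 with the covariate, and 0 to 33 leaving out each library. For shZMAT2-2 it was 66 and became 15, 0, 191, 197, 161 and 0 under the first 6 of these, 3396 without both libraries, 1107 with the covariate and 0 to 270 leaving out each library. For the mean of both arms it was 61 and became 25 with the filter, 1 with TPM, 213 with median-of-ratios scaling, 213 with quantile normalization, 180 with scaling on nuclear genes, 461 without both libraries, 1096 with the covariate and 6 to 150 leaving out each library. Between the arms it was 0, and 4761 without both libraries. For the slope it was 7322, and 3352 to 8412 leaving out each library, and 0 without both. Among single libraries left out, leaving out control replicate 2 gave the highest counts against the control and the lowest for the slope.

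Scaling shifted the median log2 difference of all genes: for shZMAT2-1 it was 0.16 as deposited, -0.032 scaled on nuclear genes and 0.37 with TPM, and for the slope -0.22, 0.028 and -0.59. Leaving out control replicate 2 turned the tallies against the control to 9 higher and 29 lower in either arm. Regulators higher and lower in shZMAT2-1 were 28 and 10 as deposited, 12 and 26 on nuclear genes, and 36 and 2 with TPM. All tested genes were 8196 and 3049, 5076 and 6169, and 9977 and 1268 in the same order. Between the arms the regulators were 14 and 24, 25 and 13, and 2 and 36. All tested genes were then 4371 and 6874, 7085 and 4160, and 2138 and 9107. The difference of SRSF9 between the arms turned to 0.019 (adjusted p = 0.937) with the covariate; the cause was not tested. With the covariate and each library left out, an alternative added after the data were seen, RBM3 in shZMAT2-2 was 0.26 to 0.59 and missed the threshold without shZMAT2-2 replicate 1 or 3 or any 1 of the control libraries.

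With the replicate number as a block, 0 regulators passed in each of the 4 comparisons and 24 for the slope, and 13, 52, 58, 0 and 6655 genes passed for shZMAT2-1, shZMAT2-2, the mean of both arms, the arms and the slope. Deviations of same-numbered libraries correlated between -0.763 and 0.777. The library of highest mitochondrial share was replicate 2 in shZMAT2-1 and in the control, and replicate 1 in shZMAT2-2. Most genes moved with the mitochondrial sum, so these correlations cannot tell whether the numbers pair the samples. Depth limits ESRP1.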
